A study of Mus musculus with 24 samples.

Results

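The miR-148 and miR-152 family is a set of 3 mouse miRNAs, miR-148a (mmu-miR-148a), miR-148b (mmu-miR-148b) and miR-152 (mmu-miR-152), and its members were taken as every miRNA of exactly these names among the miRNA spots of an Agilent mouse miRNA array, which left the star-named opposite arms out of the family. All 3 members were found among 566 mouse miRNAs. A miRNA is a short RNA that guides silencing proteins to messenger RNAs, and its seed, bases 2 to 8 from the 5′ end, does most of the target recognition. Because they share a seed, miR-148a, miR-148b and miR-152 are expected to bind overlapping sets of targets. They are known for repressing DNA methyltransferases, and miR-148a is abundant in liver, where it acts on cholesterol genes such as Abca1.

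The study compared miRNA array platforms on a pair of reference RNA pools made from commercial total RNA of mouse tissues that retains the small fraction. Gonads of both sexes (testicle and ovary) and embryos of 10 to 12 days contributed equally to Reference 1, and the organs behind Reference 2, also in equal shares, were lung, liver and heart. Strain, sex and the age of the adult animals were not given in the sources used here. On the Agilent platform 4 arrays per reference were hybridized in one color, 1 array failed quality control, and 2 per reference were then drawn at random, so that the data comprise 4 arrays. The aliquots of a reference came from 1 pool, so the spread between them, and each p-value that rests on it, is technical. A pooled RNA does not separate its tissues. A tissue that holds more of a miRNA and a tissue with more of the cells that make it cannot be told apart, and a level in 1 tissue was not measured.

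The mature sequences are printed because members of the family differ at so few bases. They are the RefSeq sequences of mouse build GRCm38.p6, written 5′ to 3′ with the seed in capitals.
miR-148a: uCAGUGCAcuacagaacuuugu
miR-148b: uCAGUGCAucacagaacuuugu
miR-152: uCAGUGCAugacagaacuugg
The seed was the same in all 3. Only these 3 of 1679 mature mouse miRNAs in the RefSeq table carried it at bases 2 to 8, which is 0.179%. Counting positions from 1 at the 5′ end, miR-148b differed from miR-148a by C9U and U10C, so 20 of 22 bases (90.9%) were identical. Over the 21 bases that both have, miR-152 differed from miR-148a by C9U, U10G and U20G, leaving 18 (85.7%) identical. Between miR-148b and miR-152 the differences were C10G and U20G, with 19 of 21 bases (90.5%) identical. miR-152 is also 1 base shorter, with 21 bases against 22. Over the shared bases the members therefore differ at positions 9, 10 and 20, and they differ in length at the 3′ end. How much of a member's signal came from its relatives was not tested.

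The mature miR-148a lies on the minus strand at chr6:51269829-51269850, and its hairpin is within the annotated span of Gm38821, a predicted gene. The mature miR-148b is on the plus strand at chr15:103285185-103285206, within Copz1 (chr15:103272888-103299865). The mature miR-152 is on the plus strand at chr11:96850439-96850459, within Copz2 (chr11:96849876-96861203). Copz1 and Copz2 are paralogs that encode zeta subunits of the COPI coat, which carries vesicles in the secretory pathway.

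Each member was measured by 2 probes of 10 spots each, and the miRNA value was the median over its 20 spots. The mean normalized log2 levels of the 2 probes were 0.38 apart for miR-148a, 1.07 for miR-148b and 0.62 for miR-152. The median over both probes therefore fell where the dimmer and the brighter spots meet, and it rested on the few spots nearest to that point. Spot signals were medians in scanner units from which no background had been taken off, and their log2 values were normalized by cyclic lowess, a procedure that removes trends with brightness between each pair of arrays. Each difference below is Reference 1 minus Reference 2 on this log2 scale, with its standard error (SE). A miRNA was called when its limma p-value, adjusted by Benjamini-Hochberg over 566 miRNAs, was under 0.05. Because background was kept, differences of dim miRNAs are understated. Over the whole array, 329 of 566 (58.1%) were called, 169 higher (29.9%) and 160 lower (28.3%) in Reference 1. Restricted to the 144 miRNAs measured well above background on all 4 arrays, which include the whole family, 91% were called, 34% higher and 56.9% lower. All 3 members were called, so the number called says nothing particular about the family. What the data hold is how the members differed in direction and size.

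miR-148a was higher in Reference 1. Its normalized log2 level was 9.37 and 9.37 in the 2 aliquots of Reference 1 and 8.92 and 8.92 in those of Reference 2. The pools did not overlap, and the aliquots of a pool were closer to each other than 0.01 in both. The difference was 0.45 (SE 0.05, 95% interval 0.36 to 0.55, limma adjusted p = 5.25e-10), which is 1.37-fold. Before normalization the median signals were 680.5 and 685.75 scanner units in Reference 1 and 464.25 and 476 in Reference 2, a log2 difference of 0.54. The deposited values gave a smaller difference of 0.27, still called, and leaving out outlier-flagged spots gave 0.35 and ended the call (SE 0.16, limma adjusted p = 0.157). A median over 2 probes of unlike brightness shifts toward 1 probe when a spot of the other is left out. How far this moved the difference was not tested. Fitted by probe without those spots, both probes of miR-148a were still called, at 0.37 and 0.49. All 20 spots were well above background on every array. By the size of a rise in Reference 1, miR-148a ranked 67 of 566 miRNAs. The liver, the tissue in which miR-148a is best known, was in the pool with the lower level.

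Both probes of miR-148a moved the same way. Probe A_54_P1273 read 609.75 and 601 scanner units in Reference 1 against 433 and 425.25 in Reference 2. Its normalized difference was 0.37 (SE 0.04, limma adjusted p over 1672 probes = 2.57e-07). Probe A_54_P1274 read 789 and 805.5 against 544.75 and 562.25, with a difference of 0.49 (SE 0.04, limma adjusted p = 3.27e-09). On each probe the 20 normalized spot values of Reference 1 lay above the 20 of Reference 2, from 9.12 to 9.29 against 8.75 to 8.96 on A_54_P1273 and from 9.46 to 9.72 against 8.87 to 9.22 on A_54_P1274. Of all probes tested, 21.3% were called higher and 19.6% lower in Reference 1.

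miR-152 was also higher in Reference 1, by a smaller margin after normalization. Its normalized log2 level was 7.23 and 7.25 in Reference 1 and 7.14 and 7.09 in Reference 2. The pools did not overlap. The difference was 0.12 (SE 0.04, 95% interval 0.03 to 0.21, limma adjusted p = 0.0147), or 1.09-fold. Leaving out the second aliquot of Reference 1 gave 0.11 (limma adjusted p = 0.0887), and leaving out the second aliquot of Reference 2 gave 0.098 (limma adjusted p = 0.0886), so the call rested on both of these arrays.

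The size of the miR-152 difference depended on the normalization. The median signals were 173 and 180 scanner units in Reference 1 and 121 and 120.25 in Reference 2, a log2 difference of 0.55 before normalization. Cyclic lowess moved miR-152 by -0.21 in Reference 1 and by 0.21 in Reference 2. The corresponding shifts of miR-148a were -0.04 and 0.04. Which of the values is nearer to the difference in RNA was not tested. Probe A_54_P2333 read 138.5 and 145.25 against 99.75 and 97, with a normalized difference of 0.11 (SE 0.04, limma adjusted p = 0.026), and it turned to -0.047 with quantile normalization (limma adjusted p = 0.399). Probe A_54_P2334 read 223.5 and 235 against 141.75 and 146.5, with a normalized difference of 0.22 (SE 0.04, limma adjusted p = 9.13e-05). All 20 spots of miR-152 were well above background on every array.

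miR-148b was called lower in Reference 1. Its normalized log2 level was 5.93 and 5.92 in Reference 1 and 6.40 and 6.22 in Reference 2. The pools did not overlap, but the aliquots of Reference 2 stood further apart than those of any other member in either pool. The difference was -0.38 (SE 0.04, 95% interval -0.47 to -0.30, limma adjusted p = 1.62e-09), which is 1.30-fold higher in Reference 2.

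The scanner signals of miR-148b did not show this difference. The medians were 71.5 and 68.75 scanner units in Reference 1 and 74.25 and 69.75 in Reference 2. On this scale the pools overlapped, and the log2 difference without normalization was -0.073 (limma adjusted p = 0.399). Cyclic lowess moved miR-148b by -0.13 in Reference 1 and by 0.18 in Reference 2. Scaling the arrays to a common median of the negative control spots, an alternative chosen after the data were seen, gave -0.010 (limma adjusted p = 0.895), and the Agilent processed signal scaled over the detected probes gave -0.29 (limma adjusted p = 0.162). Leaving out outlier-flagged spots gave -0.35 (limma adjusted p = 0.288). Fitted by probe without those spots, A_54_P1382 gave -0.47 (limma adjusted p = 1.96e-11) and A_54_P1381 gave -0.039 (limma adjusted p = 0.386). The lower call of miR-148b was made with cyclic lowess, in the deposited values and with quantile normalization (-0.53), and median centering gave -0.11 (limma adjusted p = 0.0105). By probe, median centering called neither, with -0.043 for A_54_P1382 (limma adjusted p = 0.493) and -0.064 for A_54_P1381 (limma adjusted p = 0.0813).

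**Figure D1:**
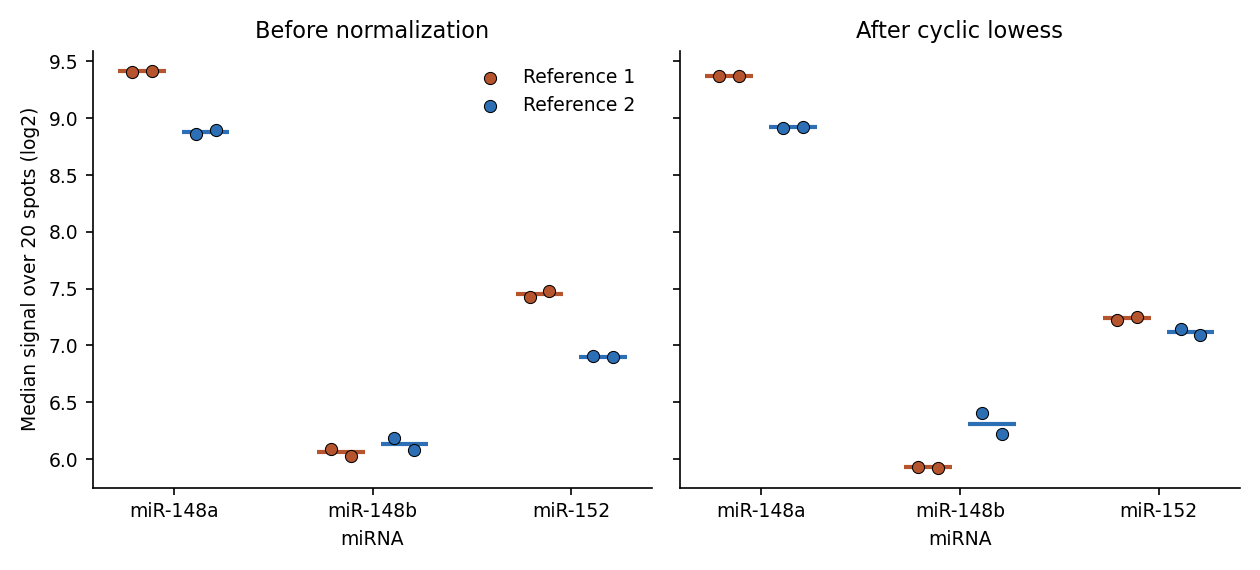
Median signal over the 20 spots of each miRNA (log2), before normalization on the left and after cyclic lowess on the right; points are the 4 arrays and bars the mean of each reference. miR-148a is higher in Reference 1 in both panels, the gap of miR-152 narrows from 0.55 to 0.12, and miR-148b overlaps before normalization and separates by -0.38 after it.

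The probes of miR-148b were unlike each other. Probe A_54_P1381 read 47.5 and 44 scanner units in Reference 1 and 46.5 and 46.5 in Reference 2, which is below the negative control thresholds of 48.7 to 54.3, and it was not well above background on any array. Its normalized difference was -0.046 (SE 0.03, limma adjusted p = 0.279). Probe A_54_P1382 read 97.25 and 95.25 in Reference 1 and 97.25 and 95.75 in Reference 2, with 10 of 10 spots well above background on each array. The signals of this probe were the same in both pools to within 2 scanner units, and its normalized difference was -0.47 (SE 0.04, limma adjusted p = 8.65e-10). After normalization its 20 spots ran from 6.26 to 6.45 in Reference 1 and from 6.67 to 6.93 in Reference 2 with no overlap. On every array but 1, the miRNA value of miR-148b is thus a median over 10 spots not well above background and 10 well above it. The exception was the first array of Reference 2, with 11 of 20 spots well above background, which also had the highest miR-148b value, 6.40. There the brightest spot of A_54_P1381 read 59.5, against 50 and 47 in Reference 1 and 52.5 on the other Reference 2 array. The median signal of miR-148b on that array, 74.25, lay between this spot and 89, the dimmest spot of A_54_P1382. The miR-148b value thus lies between its probes and is the level of neither. Taking the mean of the probe medians instead gave -0.26, still called.

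**Figure D2:**
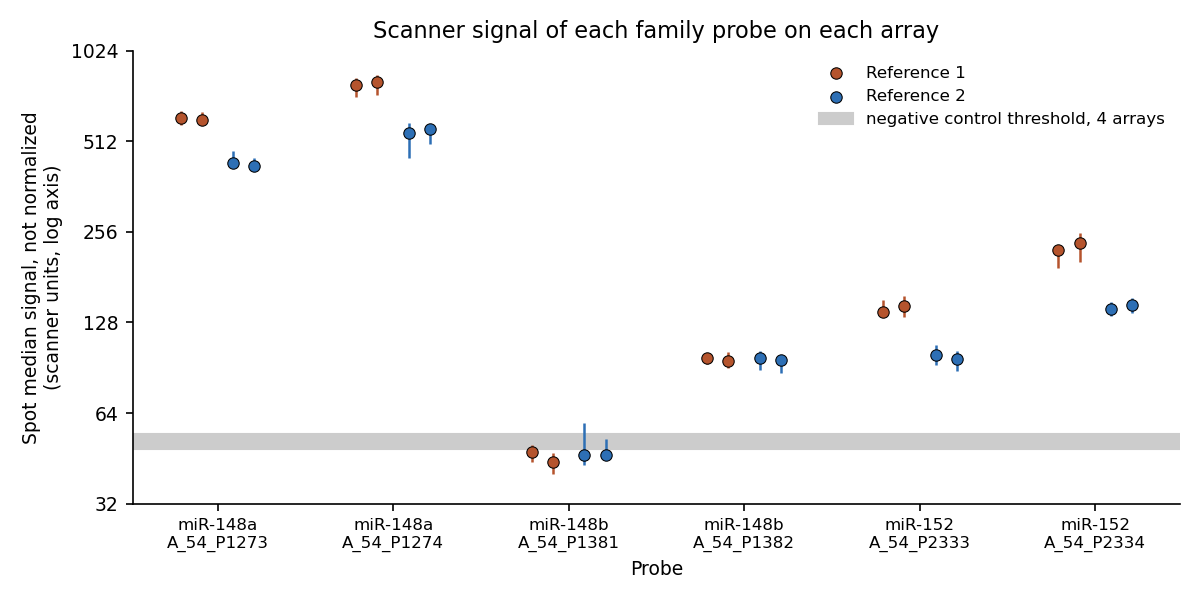
Unnormalized median signal of each probe on each array (scanner units, log axis), with lines from the lowest to the highest of its 10 spots and a gray band over the negative control thresholds of the 4 arrays. Both probes of miR-148a and of miR-152 are higher in Reference 1, A_54_P1382 of miR-148b is level between the references, and A_54_P1381 lies at the background.

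Compared within an array, the members did not keep a constant ratio. The log2 value of miR-148a minus that of miR-148b was 3.44 and 3.45 on the Reference 1 arrays and 2.51 and 2.70 on the Reference 2 arrays, so their differences between the pools were 0.84 apart. For miR-148a minus miR-152 the values were 2.15 and 2.12 against 1.78 and 1.83, which is 0.33 apart. For miR-152 minus miR-148b they were 1.29 and 1.33 against 0.74 and 0.87, which is 0.51 apart. These ratios mix the brightness of different probes, and only their change between pools can be read. In all 3 pairs, which share members, the pools did not overlap. The share over all pairs of miRNAs was not computed. Among the levels of single miRNAs, an unlike measure, 77% did not overlap. With 2 arrays against 2, the exact two-sided permutation test over arrays gave p = 0.333 for each pair, also after adjustment over 3 pairs, and this is the smallest p the design allows. Without normalization the gaps were 0.61, -0.011 and 0.62, since on that scale miR-148a differed between the pools by 0.54, miR-152 by 0.55 and miR-148b by -0.073.

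**Figure D3:**
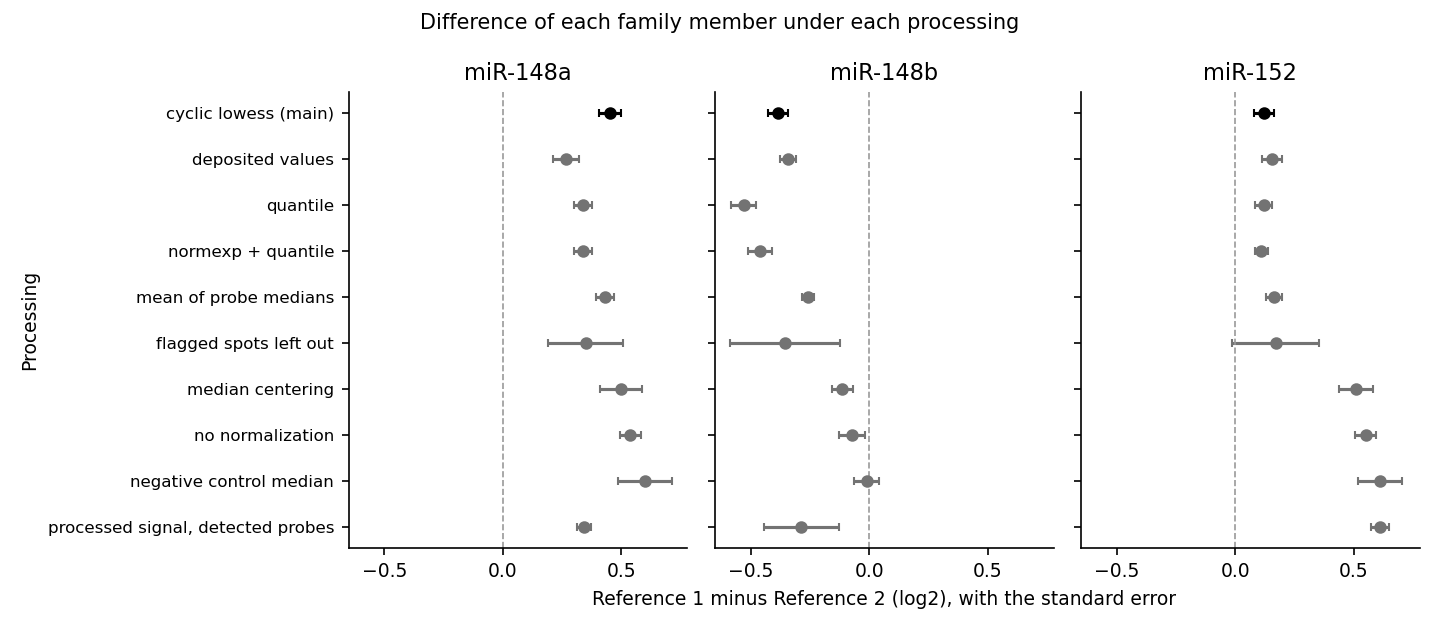
Difference of each member between the references (log2, Reference 1 minus Reference 2, bars are the SE of the limma fit) under cyclic lowess (black) and 9 other treatments of the same arrays (gray). miR-148a stays between 0.27 and 0.60 and miR-152 between 0.11 and 0.61, and miR-148b runs from -0.53 to -0.010. The processed signal scaled over all probes is not drawn.

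The only treatment in which miR-148a and miR-152 were lower in Reference 1 was the Agilent processed signal scaled to the 75th percentile over all 1672 probes, which gave -1.81 and -1.54, and -2.15 for miR-148b (limma adjusted p = 0.00119). That percentile was 15.8 and 16.4 scanner units on the Reference 1 arrays and 3.44 and 2.75 on the Reference 2 arrays. Over the 259 probes detected on all 4 arrays it was 628 and 641 against 535 and 543, and miR-148a and miR-152 then differed by 0.34 and 0.61.

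The opposite arm of the hairpin was measured for miR-148a alone, under the older name miR-148a*. It is the strand of the miRNA duplex that is usually degraded, and it has a seed of its own.
miR-148a*: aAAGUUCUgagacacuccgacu
miR-148a* was not well above background. Its median signals were 41 and 38.5 scanner units in Reference 1 and 40.5 and 41.5 in Reference 2, with 0 of 20 spots well above background on each array. The normalized difference was -0.0022 (SE 0.02, limma adjusted p = 0.937). The guide arm was thus measured in both pools, and its partner gave no signal that could be compared.

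A group of other miRNAs, the miR-130 and miR-301 miRNAs and miR-721, holds the last 6 bases of the family seed 1 position nearer to the 5′ end. Of 1679 mature mouse miRNAs in the RefSeq table, 7 (0.417%) carried these bases at positions 2 to 7. The 4 of them that were among the listed relatives are printed with the shared bases in capitals.
miR-130a: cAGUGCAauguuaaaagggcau
miR-130b: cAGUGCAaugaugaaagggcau
miR-301a: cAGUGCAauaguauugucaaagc
miR-721: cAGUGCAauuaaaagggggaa
Of 5 measured relatives, 2 rose in Reference 1, none fell and 3 did not pass the test, with a median difference of 0.073 against -0.0069 over all 566 miRNAs. Of all these miRNAs 58.1% were called, 29.9% higher and 28.3% lower in Reference 1. The number called in this list was 4 in the deposited values, with median centering, with normexp and with either processed signal, and 1 when the test was limited to miRNAs well above background on all 4 arrays. miR-721 was well above background in Reference 1 alone, where it read 6.20 and 6.24, against 5.68 and 5.60 in Reference 2. The difference of these values was 0.58 (SE 0.03, limma adjusted p = 1.49e-15). miR-721 was at least 1.23-fold higher in Reference 1, taking the dimmest detected probe of a Reference 2 array as the floor where it was dimmer. This bound was not itself tested. miR-130b, which in mouse and human cells represses Abca1 as miR-148a does, rose by 0.25 (SE 0.04, limma adjusted p = 1.27e-06). miR-130a differed by -0.058 (SE 0.05, limma adjusted p = 0.304) and miR-301a by 0.073 (SE 0.03, limma adjusted p = 0.0732), a value that turned under 3 of the 10 other treatments. miR-301b, at 0.0051 (limma adjusted p = 0.837), was not well above background on any array.

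miR-29a, miR-29b and miR-29c repress the de novo DNA methyltransferases Dnmt3a and Dnmt3b, and miR-148a and miR-148b have been tied to Dnmt1 and Dnmt3b in human cells. Of the 3 miR-29 miRNAs, none rose in Reference 1 and 2 fell, with a median of -0.79. Of all 566 miRNAs 28.3% were called lower, and 56.9% of those well above background on all 4 arrays, as these 3 were. miR-29c fell by 1.40 on the log2 scale (SE 0.05, limma adjusted p = 1.62e-20) and miR-29b fell by 0.79 (SE 0.05, limma adjusted p = 2.94e-15). The miR-29b difference was 0.11 when spots that the scanner software had flagged as outliers were left out. miR-29a differed by 0.026 (SE 0.04, limma adjusted p = 0.611), and it turned under 7 of the 10 other treatments, to -0.32 in the deposited values and -0.66 without outlier-flagged spots. After cyclic lowess miR-148a and miR-152 thus differed in the opposite direction to miR-29b and miR-29c, and miR-148b in the same direction as both.

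Of 13 miRNAs known in cholesterol and lipoprotein metabolism, 2 rose in Reference 1, 9 fell and 2 did not pass the test, with a median of -0.83 against -0.0069 over all 566 miRNAs. Of all miRNAs 58.1% were called, and 91% of those well above background on all 4 arrays, where 56.9% were lower, so a high share of calls is no mark of this list. The largest fall was that of miR-122, the main miRNA of hepatocytes, which fell by 2.50 (SE 0.04, limma adjusted p = 1.57e-28) from 12.01 ± 0.05 in Reference 2 to 9.51 ± 0.06 in Reference 1 (SD, n = 2 arrays). The higher of the 2 that rose was miR-128, which with miR-148a and miR-130b lies near human loci for blood lipids, at 0.33 (SE 0.04, limma adjusted p = 6.77e-09). The other was miR-130b. Like miR-148a, both lay below 0 with the processed signal scaled over all probes. Only 10 of the 144 miRNAs well above background on all 4 arrays lay above 0 there. Among the 9 that fell, miR-96 turned upward under 4 of the 10 other treatments and miR-27b when outlier-flagged spots were left out. After cyclic lowess miR-148a therefore differed in the same direction as miR-128 and miR-130b and opposite to 9 of the 13, among them the hepatocyte marker miR-122. These lists are described by their counts and were not tested as sets.

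**Figure D4:**
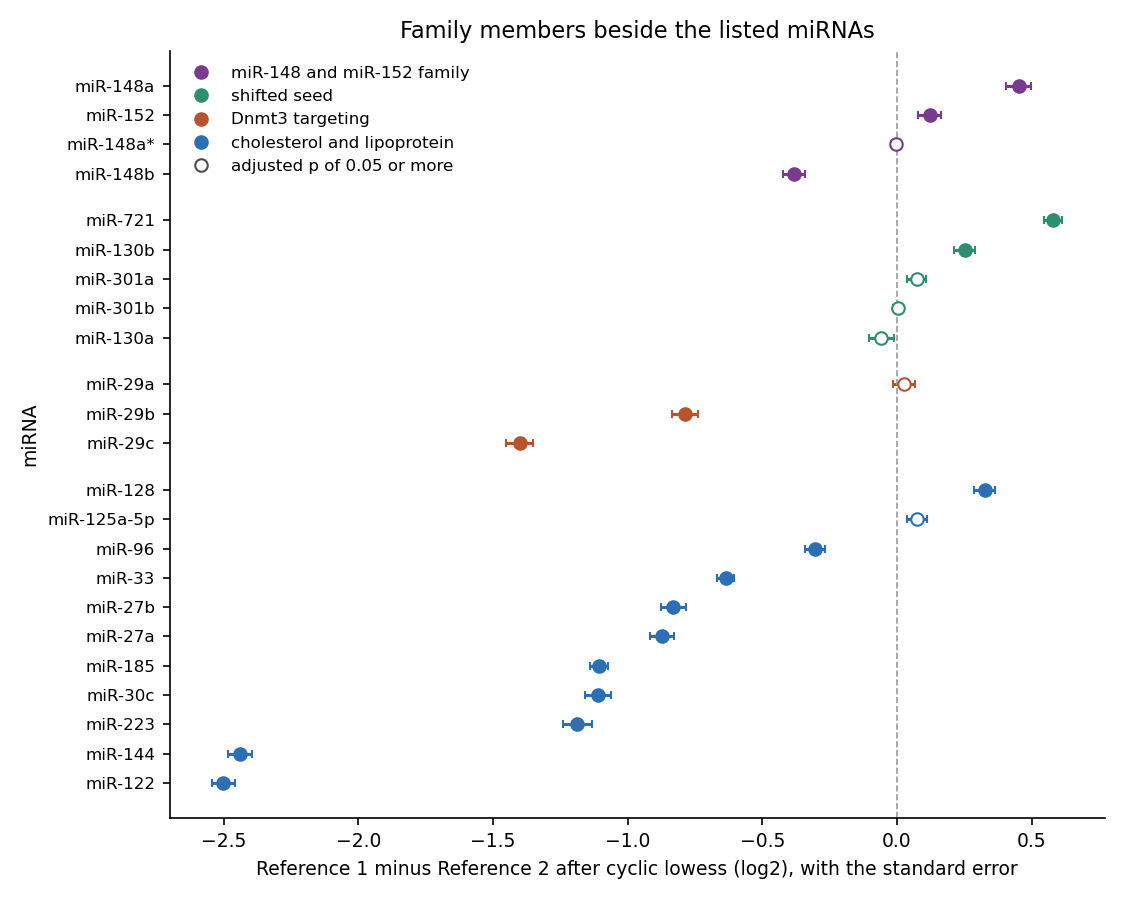
Difference between the references after cyclic lowess (log2, Reference 1 minus Reference 2, bars are the SE of the limma fit) for the family, the relatives with a shifted seed, the miR-29 group and the cholesterol and lipoprotein miRNAs, with miR-130b and miR-301b drawn once among the relatives. Open points had an adjusted p of 0.05 or more; miR-148a at 0.45 and miR-152 at 0.12 sit right of 0 and most cholesterol and lipoprotein miRNAs sit left of it, down to -2.50.

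Markers of the pooled tissues followed the labels. In Reference 1 the liver marker miR-122, all 4 heart markers, the endothelial marker and all 3 blood cell markers fell. Of 8 testis germ cell miRNAs 7 rose, as did the gonadal miR-202-3p and 2 of 3 embryo miRNAs. Over the whole array 29.9% were called higher and 28.3% lower in Reference 1, and 91% of those well above background on all 4 arrays were called. The tissues differ between the pools by design, so tissue and reference cannot be told apart in any difference above. The number of miRNAs well above background was 234 and 244 on the Reference 1 arrays and 166 and 162 on the Reference 2 arrays, and no spot was saturated.

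The miRNAs nearest to each member in pattern were found by the Euclidean distance between log2 values centered on the mean of each miRNA over the 4 arrays, among the 143 others well above background on all 4 arrays. With 4 arrays in 2 pools this likeness is mostly a like difference between the references. Nearest to miR-148a were miR-296-5p (distance 0.0586, difference 0.50), miR-18a (distance 0.0637, difference 0.41), a miR-17-92 cluster member, and miR-652 (distance 0.0644, difference 0.40), all of which turned under the processed signal scaled over all probes as miR-148a did. For miR-152 they were miR-15a (distance 0.0163, difference 0.13), miR-542-5p (distance 0.0453, difference 0.16) and miR-16 (distance 0.0523, difference 0.16). For miR-148b they were miR-181c (distance 0.109, difference -0.37), miR-26b (distance 0.112, difference -0.33) and miR-674* (distance 0.112, difference -0.41). The other members were among the 143 candidates and did not appear among the nearest miRNAs listed here. Any candidate not listed lies further away by construction, so this order is no test of whether the members are alike. By the same measure the distances were 0.333 for miR-148a and miR-152, 0.515 for miR-148b and miR-152 and 0.846 for miR-148a and miR-148b. The direction of miR-181c, miR-674*, miR-15a and miR-16 turned under 4 to 6 of the 10 other treatments, and those of miR-26b and miR-542-5p under none.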

How the data were processed

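Total RNA pools were labeled with Cy3 and hybridized to one Agilent slide, 4 arrays per reference, so no slide effect separates the references. After 1 array failed quality control, 2 per reference were drawn at random, and these 4 were used. The authors' scanner files (Feature Extraction 9.5.3.1) give an intensity, not normalized, and background flags for each of 11540 miRNA spots on an array. The authors deposited log2 values after cyclic lowess for the same arrays, and over 560 shared miRNAs these correlated with the recomputed ones at a Pearson r of 0.999 or more. The other deposited columns used here hold flags and probe names and, for the alternatives, the processed signal, the mean signal and the background.

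Median signals were taken to log2, normalized by cyclic lowess over all non-control spots, summarized by the median spot of each miRNA, following the study's methods, and fitted with limma 3.58.1 (R 4.3.3) with an intensity trend. A probe was well above background when at least 50% of its spots carried the scanner software's flag, and a miRNA when any probe was. Negative control thresholds were the mean plus 3 SD of 288 spots per array, trimmed by 5%. Precision is limited by having 2 arrays per reference. The labels do not say whether same-numbered samples were paired, and the main fit treated them as unpaired.

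The members and lists were chosen with earlier results of these data known. Named miRNAs were the members, the opposite arms and shifted-seed relatives, the highest and lowest called miRNA of each other list with miR-128, miR-130b and miR-301b, and the 3 nearest in pattern to each member. miR-29a was named in addition, after its value was seen. Of the names whose sequences are discussed, all but miR-301b were matched to RefSeq. Alternatives were other normalizations, the processed signal, normexp, the deposited values, filters, left-out arrays and a replicate block. The Exiqon, NCode and LC Sciences values carry numbered probes that were not matched to miRNA names and were not used here.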

Additional observations from a re-analysis of the deposited data

How the results depend on the processing

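Across 18 alternatives, miR-148a stayed higher and called in 16, from 0.27 to 0.60, miR-152 in 14, from 0.11 to 0.61, and miR-148b stayed lower and called in 14, from -2.15 to -0.11. Leaving out each array in turn gave 0.449 to 0.455 for miR-148a, -0.47 to -0.29 for miR-148b and 0.098 to 0.15 for miR-152. With outlier-flagged spots left out, the differences were 0.35 (limma adjusted p = 0.157), -0.35 (limma adjusted p = 0.288) and 0.17 (limma adjusted p = 0.521) for miR-148a, miR-148b and miR-152, none called. Their SE were 0.16, 0.23 and 0.18, and a median over both probes shifts toward 1 probe when a spot of the other is left out. Fitted by probe, the same treatment gave 0.37 and 0.49 for miR-148a and 0.12 and 0.22 for miR-152, all called. For miR-148b, A_54_P1382 gave -0.47, called, and A_54_P1381 gave -0.039, not called. miR-148b was also not called with no normalization (-0.073), with the processed signal over detected probes (-0.29) and with the negative control median (-0.010). The processed signal over all probes gave -1.81 for miR-148a and -1.54 for miR-152, and for probes A_54_P1273, A_54_P1274, A_54_P2333 and A_54_P2334 -1.84, -1.83, -1.47 and -1.48. The causes were not tested.

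miR-148a minus miR-152, 0.33 with cyclic lowess, was -0.011 with median centering, no normalization and the negative control median and -0.27 with the processed signal scaled either way. Leaving out an array gave 0.74 to 0.93 for miR-148a minus miR-148b, 0.30 to 0.36 for miR-148a minus miR-152 and 0.44 to 0.57 for miR-152 minus miR-148b. A_54_P2333 turned to -0.047 with quantile normalization and -0.037 with normexp, and A_54_P1381 and A_54_P1382 to 0.038 and 0.059 with the negative control median. Of the miR-148a* probes, A_54_P3404 turned to -0.022 with quantile normalization, -0.065 with median centering, -0.026 with none and -0.042 with normexp and ran from -0.013 to 0.028 when an array was left out, the lowest without replicate 2 of Reference 1, A_54_P3401 to -0.049 with median centering and -0.0091 with none, and A_54_P3402 to -0.012 with median centering.

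Of all 566 miRNAs, 329 were called with cyclic lowess, 169 higher and 160 lower. Median centering called 498 (320 lower), no normalization 73 lower, the processed signal over detected probes 219 (78 lower), the processed signal over all probes 75 higher, the negative control median 72 lower, and the filter on all 4 arrays 131 (49 higher, 82 lower). The share of called miRNAs that were higher was 51.4% with cyclic lowess, 35.7% with median centering, 69.2% with no normalization, 76.2% with the negative control median, 64.4% and 31% with the processed signal over detected and all probes and 37.4% with that filter. The median of all miRNAs was 0.35 and -1.28 with the processed signal over detected and over all probes, and miR-148a lay -0.0084 and -0.53 from it. Leaving out an array gave 283 to 322 calls, 153 to 167 higher and 129 to 155 lower. With the replicate block 328 were called, and the members kept their calls. Same-numbered samples correlated at 0.0612 in their deviations from the group means over 566 miRNAs. Spots of dim probes sit near background, which limits miR-148b and miR-148a* most. The planned fits on the Exiqon, NCode and LC Sciences values were not run, because their probes carry no miRNA name here.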
